A study of Mus musculus with 4 samples.

Results

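The 2 wild-type samples of a mouse study of group 3 innate lymphoid cells (ILC3s) are described here, each measured on 1 Affymetrix expression array. The members were chosen by title: the circZbtb20 wild type and the Nr4a1 wild type, which are 2 of the 4 arrays of the series. The first sample came from circZbtb20+/+ mice and the second from Nr4a1+/+ mice, each the control for mice that lack the circular RNA circZbtb20 or the nuclear receptor gene Nr4a1. Both carry the genotype label wild-type, and no treatment is named for either. The cells were sorted as lineage-negative, CD90 high and CD45 low. No label used here gives the tissue, the lineage antibodies, the age, strain or sex of the mice, or whether cells of several mice were pooled. With 1 array for each genotype there is no replicate error within a genotype, no test was possible, and both values are given side by side. The values are deposited log2 values between 2.19 and a ceiling of 19.93. Of 22205 rows, 19571 had 1 gene symbol, which gave 19504 genes with 1 row each, of which 18673 lie on autosomes and are described below. Percentiles are ranks of a gene among these autosomal genes within 1 array. Probes differ in how brightly they report the same amount of RNA, so an order of genes is an order of signal and not of RNA molecules.

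ILC3s are lymphocytes without rearranged antigen receptors that live mainly in the gut wall and its lymphoid tissue. They develop under transcription factors that include ID2 and ROR-alpha, depend on IL-7, and answer IL-23 and IL-1 with the cytokines IL-22 and IL-17. IL-22 acts on epithelial cells and induces antimicrobial proteins there. One subset bears the receptor NKp46 and shares genes with natural killer (NK) cells, while another resembles the lymphoid tissue inducer cells of the embryo.

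The marker genes of ILC3s were bright in both wild types. Il22 was at the ceiling of 19.93 in both arrays. Kit, which encodes the receptor for stem cell factor, was at 18.07 in the circZbtb20 wild type and at 18.36 in the Nr4a1 wild type, and Il7r, the IL-7 receptor alpha chain, was at 16.21 and 16.38. Il23r, which binds IL-23, was at 16.38 and 15.43. Ncr1, which encodes NKp46, was at 13.91 and 15.05, so that it was the dimmest of these 5 genes in both arrays. Even so, Ncr1 lay at percentiles 98.1 and 98.8, where the median autosomal gene had a value of 4.54 in the first and 4.57 in the second. The genes of the sort antigens were lower, Thy1 (CD90) at 12.36 in both and Ptprc (CD45) at 11.89 and 12.54.

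The 30 brightest autosomal genes by the mean of both arrays, without predicted genes and small RNAs, held both general housekeeping genes and genes known from activated lymphocytes. The named genes at the ceiling in both arrays were Il22, its near-identical copy Iltifb, Eef1a1 (a translation elongation factor), Fth1 (the ferritin heavy chain), Ly6e (a surface protein anchored by lipid) and Rmrp, the RNA component of a ribonuclease complex. Their order is not known, and probes may not separate Il22 from Iltifb. Of the other genes, 8 encode ribosomal proteins, among them Rps6 at 19.40 and 19.76 and Rps23 at 19.52 and 19.61. B2m, the light chain of MHC class I, was at 19.69 and 19.93.

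The remaining genes had various roles, and 2 were on the immediate-early list. Nr4a3 was at 19.93 and 19.90 and Nr4a1 at 19.93 and 18.11, both orphan nuclear receptors that follow stimulation quickly. Tnfaip3, which encodes the NF-kB brake A20, was at 19.29 and 19.89. Pim1, a survival kinase downstream of cytokine receptors, was at 18.41 and 19.19. Id2, the transcriptional regulator needed by all innate lymphoid cells, was at 18.66 and 18.89, and Bhlhe40, a repressor that shapes cytokine output, at 18.67 and 18.79. Srgn, the proteoglycan core of secretory granules, was at 18.49 and 19.28, and Gem, a small GTPase induced by mitogens, at 18.67 and 18.71. Hspa5, the main chaperone of the endoplasmic reticulum, was at 18.95 and 18.62, and Odc1, the first enzyme of polyamine synthesis, at 18.74 and 18.90. Only Nr4a1 among the 30 differed by at least 2-fold between the arrays, and since its higher value is at the ceiling, the difference of -1.82 is a lower bound on its size.

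**Figure D1:**
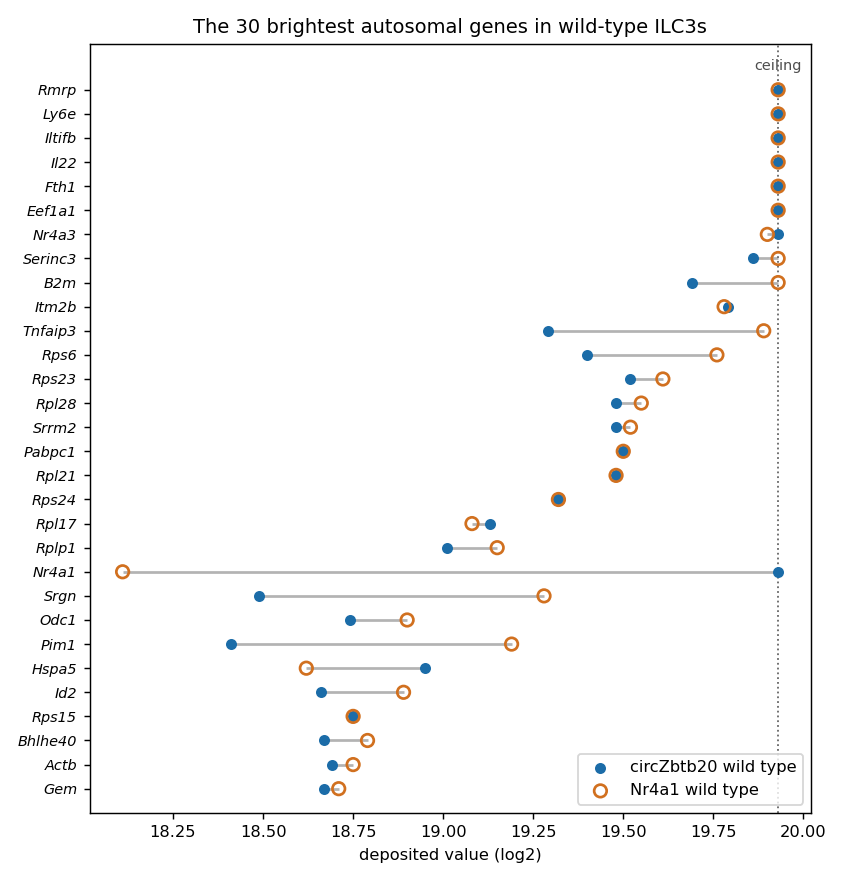
Deposited log2 values (x axis) of the 30 brightest autosomal genes (y axis), with the circZbtb20 wild type as filled points and the Nr4a1 wild type as open circles; the dotted line is the ceiling of 19.93. Most points of a pair lie close together, and Nr4a1, at 19.93 and 18.11, is the widest pair.

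Since Nr4a3 and Nr4a1 were among the 30 brightest genes, the 250 bases before the RefSeq start sites of the 3 NR4A genes are shown, 5′ to 3′ on the strand of the gene, from assembly GRCm38.p6. Capitals mark matches on either strand to TGACG, the core of the site bound by CREB-type factors that respond to cyclic AMP and calcium signals.
Nr4a3 (chr4:48045055-48045304, plus strand): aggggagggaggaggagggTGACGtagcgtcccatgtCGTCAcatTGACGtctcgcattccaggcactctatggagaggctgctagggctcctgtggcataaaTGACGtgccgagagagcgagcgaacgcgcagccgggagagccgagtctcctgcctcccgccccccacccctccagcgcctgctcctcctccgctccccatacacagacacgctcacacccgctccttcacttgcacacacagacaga
Nr4a1 (chr15:101266596-101266845, plus strand): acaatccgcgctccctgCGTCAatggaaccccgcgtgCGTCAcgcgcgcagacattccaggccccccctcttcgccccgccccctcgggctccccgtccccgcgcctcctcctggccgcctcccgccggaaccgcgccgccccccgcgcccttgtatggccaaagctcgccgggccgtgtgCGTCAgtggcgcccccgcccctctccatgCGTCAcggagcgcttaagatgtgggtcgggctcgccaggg
Nr4a2 (chr2:57124004-57124253, minus strand): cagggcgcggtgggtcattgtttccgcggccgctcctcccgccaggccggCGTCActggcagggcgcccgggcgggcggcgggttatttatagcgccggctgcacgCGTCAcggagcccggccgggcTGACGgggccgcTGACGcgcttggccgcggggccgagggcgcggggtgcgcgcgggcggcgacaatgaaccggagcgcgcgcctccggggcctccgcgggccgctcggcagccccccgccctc
Each window held 4 matches. Of the 14989 measured autosomal genes with a window of the same length, 21.1% held at least 1 match and 0.227% held 4 or more. The bound of 4 is the count of the NR4A windows themselves, so the last share is no test of them. Among immediate-early genes, the fast responders to stimulation, 17 of the 32 with a window held at least 1 match. So did 10 of the 21 heat shock genes with a window, so the match is not particular to immediate-early genes. The full site TGACGTCA was in 3 of the 32 immediate-early windows and in 2.09% of all windows. None of the windows of the NR4A genes held it. A match describes the letters only and does not show that a factor binds there. Nr4a2, the third gene of the family, was less bright, at 13.92 and 14.63.

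Receptors of ILC3s were bright as a list. The 33 measured surface receptors had a median of 12.36 in the circZbtb20 wild type and 12.74 in the Nr4a1 wild type, at median percentiles of 96.6 and 96.9. Of these, 20 and 21 lay in the top 5% of their array, and none lay under the median of all rows in both arrays. By the mean of both arrays Il2rb, the beta chain shared by the IL-2 and IL-15 receptors, came first at 18.60 and 18.34, followed by Kit, by Klrb1b at 17.88 and 18.31, a lectin-like receptor of the NK family, and by the costimulatory receptor Icos at 17.39 and 17.75. Il1r1, which binds IL-1, was at 15.27 and 14.44. Cxcr6, a chemokine receptor of NKp46-bearing ILC3s, was at 15.06 and 15.35. Ccr6, which marks inducer-like ILC3s, was low at 5.30 and 5.40.

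The transcription factors of ILC3s covered a wide range. The 22 measured genes had medians of 11.35 and 11.65, with 11 and 13 in the top 5%. Below Id2 stood Rora at 17.43 and 17.38, Ets1 at 16.21 and 16.59, Stat3, which transmits the IL-23 signal, at 15.02 and 14.69, and Rbpj, the DNA-binding partner of Notch, at 14.65 and 15.07. Zbtb16, which marks innate lymphoid progenitors, was at 12.81 and 11.55. Ahr, the sensor of aryl hydrocarbons that sustains ILC3s, was far dimmer, at 7.78 and 9.39. Tbx21, which encodes T-bet, was at 6.53 and 6.98, and Eomes, a factor of NK cells, at 5.77 and 6.39.

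Cytokine genes ranged from the ceiling to the background. Besides Il22 and Iltifb, Vegfa was at 16.73 and 16.57 and Csf2, which encodes GM-CSF, at 15.02 and 16.05. Il17f was intermediate at 10.80 and 9.61, and Tnfsf11, which encodes RANKL, at 9.97 and 9.12. Il17a, at 5.10 and 4.60, lay little above the medians of all rows, 4.48 and 4.51, and Il2, at 2.76 and 2.80, lay below them. The 15 measured genes had medians of 7.12 and 9.12, with 4 in the top 5% of each array. Their median difference was 0.04, or 0.17 without the members at the ceiling or over those past the filter on low values only, while the medians are the values of different genes, Il10 in the first array and Tnfsf11 in the second.

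Markers of the NKp46-bearing and the inducer-like ILC3 subset were bright to different degrees. The 16 markers of the former had medians of 10.99 and 10.86, with 8 in the top 5% of each array. The 13 of the latter had medians of 8.10 and 7.69, with 2 in the top 5% of each array and minima of 5.10 and 4.60. Ccr6, which marks the inducer-like subset, was low, as given above. Il12rb2, a chain of the IL-12 receptor, was at 14.07 and 14.52 in the first list, and Ccr7, which guides cells to lymph nodes, was at 13.10 and 14.48 in the second. The lists hold different probes, and fewer cells of a subset cannot be told apart from less RNA per cell in a bulk sample.

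Genes of recent stimulation were bright as a list. The 41 measured immediate-early genes had medians of 12.47 and 13.62, with 23 and 25 in the top 5%. Dusp1, a phosphatase that switches off MAP kinases, was at 18.36 and 18.91, and Rgs1, which damps chemokine receptor signals, at 18.52 and 18.50. The AP-1 subunit genes Junb, at 14.84 and 15.23, and Jund, at 13.32 and 14.07, were bright, while Fos was at 11.43 and 12.73. Not all members were high: Egr3 was at 5.38 and 6.63, Klf2 at 5.30 and 5.97 and Dusp2 at 3.88 and 4.45. The 16 NF-kB subunits and feedback inhibitors had medians of 12.38 and 13.39. After Tnfaip3 came the subunit genes Rel, at 18.36 and 18.56, and Rela, at 17.15 and 18.03, and the inhibitor of apoptosis Birc3, at 16.20 and 16.57.

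Among housekeeping groups, genes of translation stood out. The 60 genes caught by the ribosomal protein pattern had medians of 15.31 and 15.83, with 53 and 52 in the top 5%, and 20 of them were among the 100 brightest genes. The dimmest was Rpl3l, a form known from muscle, at 3.15 and 3.20. A list of 18 elongation, initiation and related factors had medians of 13.63 and 14.17, led by Eef1a1 and by Pabpc1, which binds poly(A) tails, at 19.50 in both. These 18 are bright members of larger families: over all symbols with the stem Eef the medians were 8.11 and 7.53, and with the stem Eif 7.93 and 7.83. The 21 actin and thymosin genes had medians of 13.77 and 13.79, led by Actb at 18.69 and 18.75 and by cofilin, Cfl1, at 17.94 and 17.95. The 14 genes of the unfolded protein response had medians of 13.06 and 12.40. Subunits of oxidative phosphorylation, at 8.32 and 8.42, of the proteasome, at 8.08 and 7.64, and of the mitochondrial ribosome, at 5.83 and 5.68, were lower, though still above the median gene. Glycolytic genes ranged from Gapdh at 16.22 and 16.06 to Ldhb at 3.58 and 3.38.

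A second grouping, by the letters of the gene symbol before its first digit, gave 334 families of at least 8 genes. Ordered by their median percentile over both arrays, the ribosomal stems Rpl and Rps came first and second. The third was Defa, the alpha-defensins of Paneth cells, whose 22 members had medians of 8.91 and 12.92 and are taken up below. Then came Cnot, subunits of the complex that shortens poly(A) tails, at 11.12 and 9.97, Srsf, splicing factors, at 9.73 and 9.97, Srp, the signal recognition particle, at 10.06 and 9.69, Csnk, casein kinases, at 9.12 and 9.03, and Atf, basic leucine zipper factors, at 9.05 and 9.06. The stem Rps also caught the S6 kinase genes. At the other end were homeobox genes of the Lhx stem, at 3.02 and 3.22, nicotinic receptor subunits (Chrna) at 3.12 and 3.23, Esp at 3.34 and 3.17, Dlx at 3.14 and 3.19, beta-protocadherins (Pcdhb) at 3.31 and 3.09, and Bpifb at 3.35 and 3.21. The 1085 olfactory receptor genes had medians of 3.36 and 3.42, with 976 under the medians of all rows in both arrays, although the highest reached 11.97 and 11.46.

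**Figure D2:**
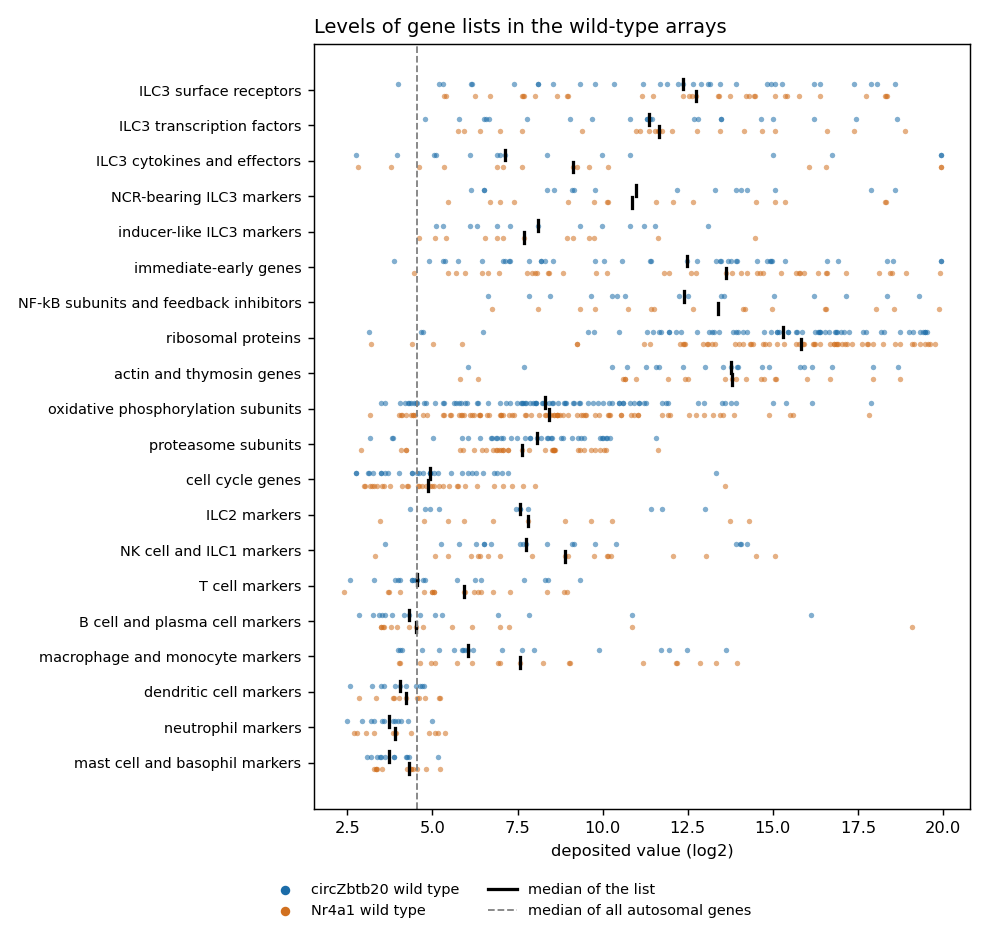
Deposited log2 values (x axis) of the genes of 20 lists (y axis) in the circZbtb20 wild type (blue) and the Nr4a1 wild type (orange); each point is a gene, black bars are list medians and the dashed line is the median of all autosomal genes in the circZbtb20 wild type. ILC3 receptors, immediate-early genes and ribosomal proteins have medians far above the dashed line, while markers of dendritic cells, neutrophils and mast cells have medians below it. Lists of stromal, endothelial, epithelial and pancreatic genes are not drawn.

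Markers of several cell types that a sort could carry along had medians below that of all autosomal genes. The 12 neutrophil markers had medians of 3.72 and 3.91, with a range of 2.48 to 4.99 in the circZbtb20 wild type and 2.70 to 5.36 in the Nr4a1 wild type. The 12 mast cell and basophil markers had medians of 3.74 and 4.31, and the highest of them reached 5.15 and 5.21. The 11 dendritic cell markers had medians of 4.05 and 4.21, the 9 hepatocyte markers 3.61 and 3.76 and the 10 neuron and glia markers 4.03 and 3.89. None of the genes of these 5 lists was in the top 5% of either array. Lists of other such cells lay above the median gene. The 14 stroma markers had medians of 7.69 and 6.85, and none was under the median of all rows in either array. The 12 endothelial markers had medians of 6.82 and 6.15, and the 19 macrophage markers 6.04 and 7.56. For the 25 pancreatic acinar genes they were 9.45 and 6.99, and for the 19 goblet and Paneth markers 6.20 and 8.82. The 32 cell cycle genes lay near the middle of each array, with medians of 4.93 and 4.87 and 20 members above the median of all rows in each. Pcna, the sliding clamp of DNA replication and repair, was the only one in the top 5%, at 13.33 and 13.60, and Mcm6, a helicase subunit, was at 7.21 and 7.66. Mki67, a proliferation marker, was at 6.82 in both, and Cdk1, the mitotic kinase, was at 2.76 and 3.17.

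Genes of other lymphocytes were present to different degrees. The 19 markers of NK cells and ILC1s had medians of 7.74 and 8.89; Gzma, a granzyme, was at 14.04 and 13.05 and Prf1, perforin, at 7.74 and 7.93. NKp46-bearing ILC3s share part of this list, such as Ncr1 and Il12rb2. The 11 ILC2 markers had medians of 7.56 and 7.81, with 3 and 2 in the top 5%. The brightest by mean were Il17rb, a chain of the IL-25 receptor, at 13.02 and 14.31, Ccr8, a chemokine receptor, at 11.43 and 13.75 and the cytokine gene Il5 at 11.74 and 10.29. Among the 19 T cell markers the CD3 genes were at 8.40 and 7.28 for Cd3g, 6.44 and 8.88 for Cd3e and 4.72 and 6.42 for Cd3d, and no member was in the top 5%. Of 15 B cell and plasma cell markers, Jchain, which links polymeric antibodies, was bright at 16.12 and 19.08, whereas Cd79b was at 4.31 and 4.32, Ms4a1 at 3.52 and 3.78 and Pax5 at 3.81 and 3.96. Macrophage markers were mixed, with 4 and 5 of 19 in the top 5% and 16 and 17 at or above the median of all rows. Fcer1g, a signalling chain that NK-type cells also use, was at 13.63 and 13.33, while Adgre1 was at 4.70 and 4.96. Whether such genes come from ILC3s or from other cells in the sort was not tested.

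The values of the wild-type arrays were closely correlated. Across the 18673 autosomal genes the Pearson coefficient was 0.974 and the Spearman coefficient 0.947; genes within an array are not independent replicates, and both arrays share probes. The other 5 pairs of arrays in the series had Pearson coefficients between 0.783 and 0.903. Over the 8811 genes at or above the median of all rows in both arrays the Pearson coefficient was 0.964, and over the 8334 genes below it in both arrays it was 0.695, where values depend on background. Of the 100 brightest genes of each array, 88 were shared, or 88.0% of each list, and of the 30 brightest 22 were shared. Among the genes that only 1 array placed in its top 100 were 3 amylase genes in the circZbtb20 wild type and Jchain in the Nr4a1 wild type.

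Differences are given as the Nr4a1 wild type minus the circZbtb20 wild type. The rule of size called a gene where the values lay 2-fold or more apart and the brighter one was not under its array's median over all rows. By this rule 1575 of 10337 genes past the filter on low values, or 15.2%, differed, 876 higher (8.47%) and 699 lower (6.76%). The balance of directions depends on the scaling, since quantile normalization gave 773 higher and 797 lower. The median absolute difference over all autosomal genes, many of them near the background, was 0.32, and the median difference was 0.03. Of the genes past the filter, 54.3% had values less than 0.5 apart. Among the 51 genes with a mean of 18 or more, the median absolute difference was 0.16 and 1.96% differed by at least 2-fold, but 7 of them are at the ceiling in both arrays, which sets their difference to 0, so that these values say little about agreement. Among the 765 genes with a mean from 10 to 12 it was 0.46, and 20.9% differed. At 4-fold or more, 118 genes were higher and 77 lower. Of these, 32 of the higher belonged to the lists of intestinal epithelium and 20 of the lower to those of pancreas and stomach, which have 58 and 39 measured members.

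**Figure D3:**
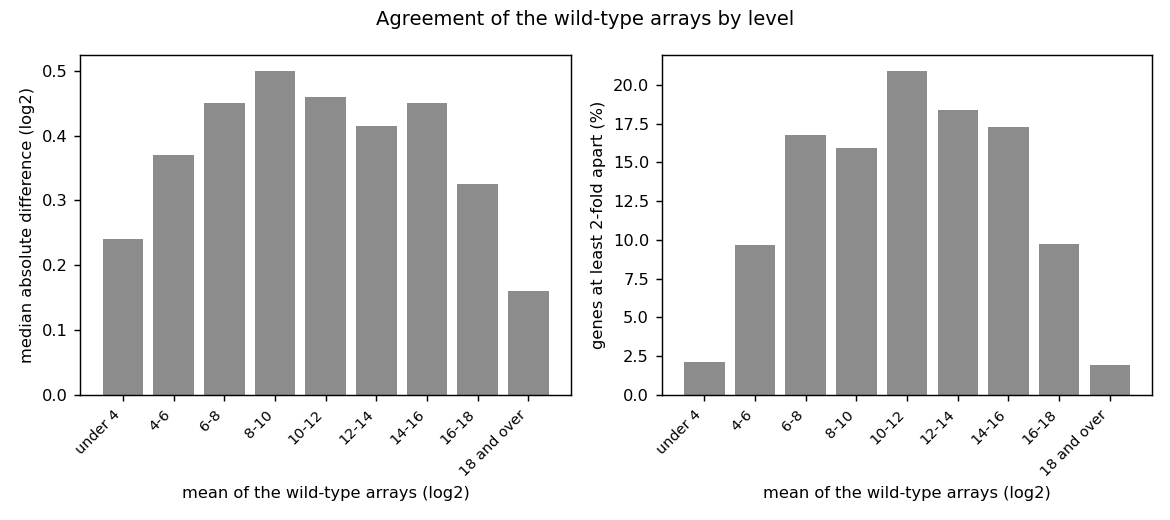
Median absolute log2 difference between the wild-type arrays (left) and percent of genes at least 2-fold apart (right), both against the mean deposited log2 value of the gene in steps. Both measures are higher at intermediate levels than at the ends, where values are close to the background (2.11% under a mean of 4) or to the ceiling (1.96% from 18).

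Genes of the intestinal epithelium were higher in the Nr4a1 wild type. Among all autosomal genes past the filter, 8.47% were higher and 6.76% lower. Paneth cells sit at the base of the crypts of the small intestine and secrete antimicrobial proteins, and goblet cells secrete mucus. All 22 alpha-defensin genes were higher, with a median difference of 3.38; Defa21 was at 12.07 in the circZbtb20 wild type and 16.34 in the Nr4a1 wild type, Defa24 at 9.44 and 13.86 and Defa39 at 8.31 and 13.93. These genes are near-identical copies, 6 of them share their values with another member, and they are not separate measurements. This list was written after the values were seen. Of the 19 markers of goblet and Paneth cells, 14 were higher and none lower, with a median difference of 2.60. Lyz1, the Paneth cell lysozyme, was at 7.98 and 12.87, Muc2, the main mucin of goblet cells, at 5.27 and 10.43, and Ang4, an antimicrobial ribonuclease, at 6.20 and 10.49. Of the 19 enterocyte markers, 14 were higher and none lower, with a median difference of 1.31, among them Cdh1, which encodes E-cadherin, at 4.92 and 8.45, Epcam at 5.46 and 8.13 and Lgals4 at 4.13 and 8.02. Pigr, which carries antibodies across epithelium, was at 4.19 and 9.21, Clca3b at 4.31 and 8.62 and Lgals2 at 8.36 and 12.36.

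Genes of the exocrine pancreas and the stomach stood the other way. Among all autosomal genes past the filter, 6.76% were lower and 8.47% higher. Of 25 measured genes of pancreatic acinar cells, which make digestive enzymes, 19 were lower in the Nr4a1 wild type and none higher, with a median difference of -2.46. Amy2a4, an amylase, was at 18.98 in the circZbtb20 wild type, rank 24 of its autosomal genes, and at 15.24 in the Nr4a1 wild type, rank 209. Ctrl, a chymotrypsin-like protease, was at 14.10 and 8.82, Cpb1, a carboxypeptidase, at 12.69 and 8.18, and Rnase1, the pancreatic ribonuclease, at 9.57 and 4.07. Of 14 genes of the gastric mucosa, listed after some of their values were seen, 5 were lower and none higher; their median difference was -0.97, or -4.89 over members past the filter on low values only, since 8 of the 14 were under the median in both arrays. Tff2, a trefoil peptide of gastric mucous cells, was at 14.25 and 7.52, the gastrokine genes Gkn2 at 10.88 and 5.45 and Gkn3 at 9.88 and 4.20, and the pepsinogen gene Pgc at 8.30 and 3.96. The acid pump genes Atp4a, at 4.40 and 3.87, and Atp4b, at 3.76 and 3.71, were near the background in both. Several amylase and protease genes were thus bright in both arrays, while Gkn3 and Pgc were under the array median in the Nr4a1 wild type. The part of these cells in other differences between the arrays was not tested. Without the 258 members of all lists of other cell types, 1462 genes, or 14.4% of those past the filter, still met the rule.

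**Figure D4:**
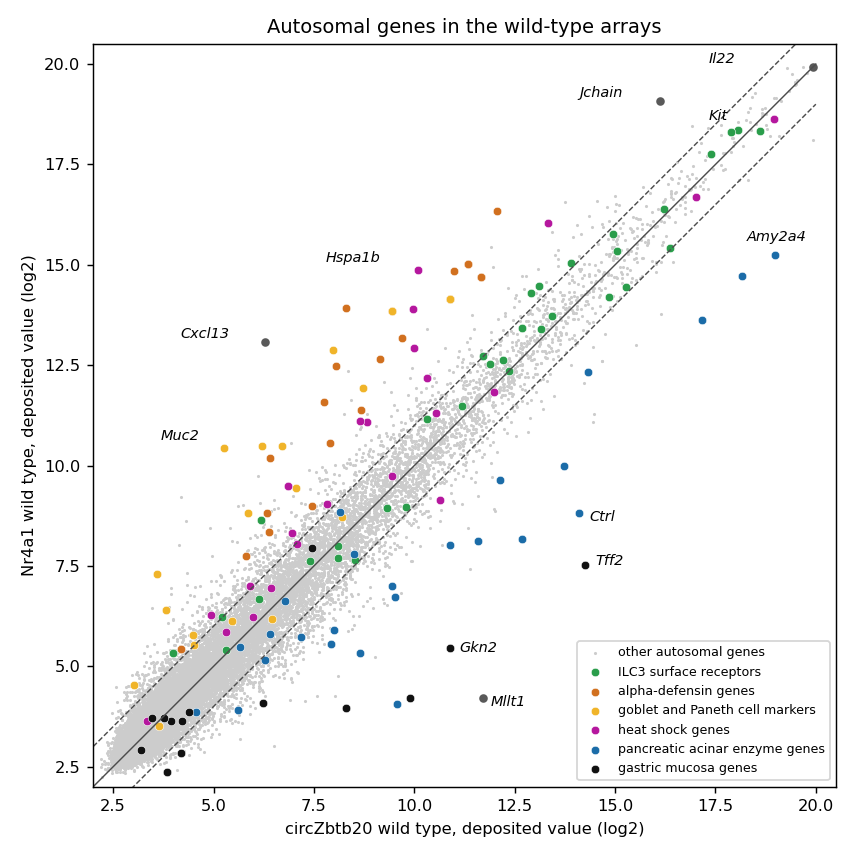
Deposited log2 values of 18673 autosomal genes in the circZbtb20 wild type (x axis) and the Nr4a1 wild type (y axis); the solid line marks equal values and the dashed lines a 2-fold difference. All 22 alpha-defensin genes and 14 of 19 goblet or Paneth genes lie above the band, 19 of 25 pancreatic genes lie below it, and most ILC3 receptors lie within it.

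Heat shock genes were higher in the Nr4a1 wild type. These genes encode chaperones and are switched on by heat shock factor when proteins unfold. Of 23 measured members 12 were higher and 1 lower, with a median difference of 1.09 against 0.03 over all autosomal genes. The shares of all genes past the filter were 8.47% higher and 6.76% lower. Hspa1b was at 10.10 and 14.88, Dnajb1, a partner of HSP70, at 9.97 and 13.90, Hspa1a at 9.99 and 12.94 and Hsp90aa1, the inducible HSP90, at 13.34 and 16.03. The mitochondrial chaperonin genes Hspd1, at 6.85 and 9.50, and Hspe1, at 8.65 and 11.10, were higher too. The mitochondrial HSP70 gene Hspa9 was the member that was lower, at 10.63 and 9.15. The chaperones of the endoplasmic reticulum, Hspa5 and Hsp90b1 (17.01 and 16.68), differed by less than 2-fold.

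The windows of the inducible HSP70 genes are shown because these genes had 2 of the greatest differences of the list, on the same assembly and with the same 250 bases. Capitals mark matches to GAANNTTC, the core of the heat shock element, which reads the same on both strands.
Hspa1b (chr17:34959239-34959488, minus strand): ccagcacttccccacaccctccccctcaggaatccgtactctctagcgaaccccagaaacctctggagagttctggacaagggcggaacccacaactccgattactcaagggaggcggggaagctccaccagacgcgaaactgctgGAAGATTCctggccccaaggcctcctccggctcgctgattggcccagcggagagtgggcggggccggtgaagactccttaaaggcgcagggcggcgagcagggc
Hspa1a (chr17:34972157-34972406, minus strand): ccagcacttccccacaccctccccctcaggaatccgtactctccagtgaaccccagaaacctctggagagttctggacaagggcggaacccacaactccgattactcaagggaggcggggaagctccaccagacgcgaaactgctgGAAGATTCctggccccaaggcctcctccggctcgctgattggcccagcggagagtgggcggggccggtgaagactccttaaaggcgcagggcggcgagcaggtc
The windows were identical at 247 of 250 positions, each with 1 match that begins 104 bases before the start. The motif was found in 5 of the 21 heat shock genes with a window, Hspa1a, Hspa1b, Hspe1, Hspb1 and Fkbp4, and in 6.03% of the 14989 windows. The transcripts of Hspa1a and Hspa1b are near-identical as well, so their signals are not fully separate.

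Genes of recent stimulation were bright in both arrays and on balance brighter in the Nr4a1 wild type. Of 41 immediate-early genes 13 were higher and 1, Nr4a1, was lower, with a median difference of 0.59. Over all autosomal genes past the filter 8.47% were higher and 6.76% lower. Myc, a driver of growth, was at 13.76 and 16.57, Fosb at 13.44 and 15.81, Sik1, a salt-inducible kinase, at 14.55 and 16.59, and Zfp36, which speeds the decay of cytokine mRNAs, at 12.78 and 14.72. Of 16 NF-kB genes 4 were higher and none lower, with a median difference of 0.61, or 0.43 after quantile normalization. Among the higher ones were the inhibitors Nfkbia, at 15.03 and 16.52, and Nfkbid, at 12.51 and 14.17. Within the NR4A family the sign differed, since Nr4a2 was at 0.71 and Nr4a3 at -0.03 beside Nr4a1 at -1.82. Since Nr4a1 and Nr4a3 touch the ceiling in the first array, their differences there are bounds. Heat shock genes were higher on the same array, and their part in this result was not tested.

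Markers of antigen-presenting, vascular and stromal cells differed as well. The counts below stand beside shares of 8.47% higher and 6.76% lower over all autosomal genes past the filter. Of 9 MHC class II presentation genes, which ILC3s and myeloid cells express, 6 were higher and 1 lower in the Nr4a1 wild type, with a median difference of 1.74; the lower one was H2-Ob, at 5.46 and 3.60. H2-Aa was at 11.49 and 13.39 and H2-Ab1 at 11.39 and 13.18. Of 19 macrophage markers 7 were higher and none lower, with Lyz2 at 9.90 and 12.17 and the receptor gene Csf1r at 5.88 and 7.56. Of 12 endothelial markers 6 were lower and none higher, with a median difference of -1.34; Eng, endoglin, was at 11.93 and 9.72 and Cdh5, VE-cadherin, at 9.22 and 7.25. Of 14 stroma markers 5 were lower, led by Sparc, a matrix protein, at 14.46 and 11.08. Selp, P-selectin of platelets and vessels, was at 11.38 and 7.43. Cxcl13, a chemokine that draws B cells into follicles, showed the greatest difference among the autosomal genes that were higher, at 6.28 and 13.08, whereas Ccl21a, made by lymphatic vessels and stroma of lymphoid organs, was at 12.68 and 11.62. The related gene Ccl21b was further apart, with a difference of -2.07 in the brighter of its 2 rows and -2.1 in the other.

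Replication-dependent histone genes and interferon-stimulated genes went in opposite directions. Of 49 histone genes 23 were higher and none lower, with a median difference of 0.96, and H2bc4 was at 11.92 and 15.44. The shares of all genes past the filter were 8.47% higher and 6.76% lower. Since 3 of the histone genes share their values with another member, they are not all separate measurements. Of 32 cell cycle genes 1 was higher and 2 were lower. Of 27 interferon-stimulated genes none was higher and 6 were lower, with a median of -0.39, or -0.70 over members past the filter on low values only, among them Bst2, which tethers virus particles, at 8.89 and 6.98 and Ifit3b at 5.92 and 4.02. The autosomal gene with the greatest difference was Mllt1, which encodes a subunit of transcription elongation complexes, at 11.70 and 4.22. Pkd1, the polycystin gene, was at 9.02 and 5.24 and Plac9b at 8.02 and 4.27.

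**Figure D5:**
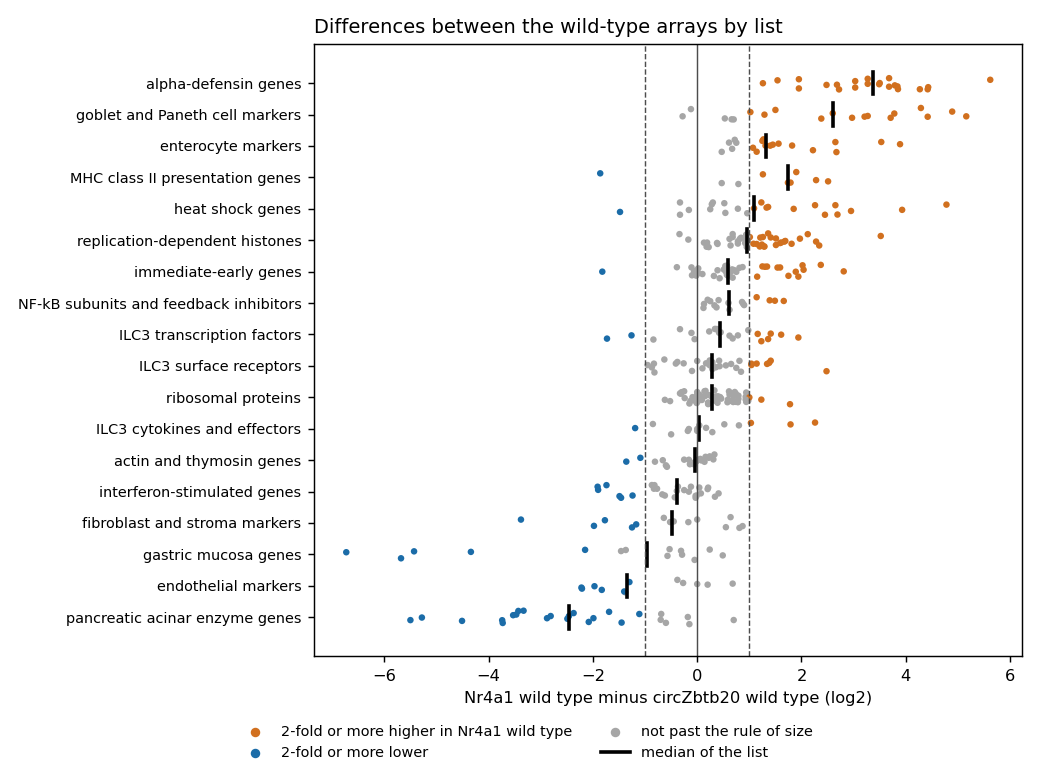
Log2 difference, Nr4a1 wild type minus circZbtb20 wild type (x axis), of each gene (points) in 18 lists (y axis); orange and blue points met the rule of size as higher or lower, black bars are list medians and dashed lines mark 2-fold. The medians of the epithelial lists lie to the right, from 1.31 to 3.38, those of gastric, endothelial and pancreatic genes to the left, from -0.97 to -2.46, and that of the ILC3 receptors at 0.29.

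Among ILC3 genes some members differed as well. Of 33 surface receptors 7 were higher and none lower, with a median difference of 0.29, or 0.16 after quantile normalization. Vipr2, a receptor for vasoactive intestinal peptide, differed most, at 6.17 and 8.65, followed by Cd44, at 12.90 and 14.31, and Ccr7. The ILC3 transcription factors included 6 higher and 2 lower genes among 22, and their median difference was 0.44. Batf was at 9.05 and 10.99 and Ahr was higher by 1.61, while Zeb1, at 13.47 and 11.74, and Zbtb16 were lower. Among the cytokines Tnf, at 6.98 and 9.24, Ifng, at 8.37 and 10.16, and Csf2 were higher and Il17f was lower. The granzyme gene Gzmb was at 14.23 and 12.06. Of 60 ribosomal proteins 3 were higher and none lower, and of 21 actin genes 2 were lower and none higher. Over all autosomal genes past the filter 8.47% were higher and 6.76% lower, so the ribosomal and actin counts say little about those lists.

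The arrays differed in one further respect that the labels do not give. The Y-linked genes Uty, at 2.65 and 9.96, Eif2s3y, at 3.04 and 8.68, and Kdm5d, at 2.89 and 6.16, were at background in the circZbtb20 wild type and above the array median in the Nr4a1 wild type. Mouse line, array and Y-linked signal vary together, so their contributions to the differences above cannot be told apart.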

How the data were processed

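Total RNA of sorted ILC3s was extracted with Trizol and labelled with biotin for Affymetrix arrays, per the labels' protocols. The deposited log2 values were made by the authors with Affymetrix Power Tools and RMA, per the submitters' processing notes; their versions, settings and genome build were not given in the sources used here. RMA as a method corrects background, aligns the distributions of arrays and summarises probes. The series text names one Affymetrix mouse array, while the row identifiers belong to another mouse platform. Values at the ceiling of 19.93, which is log2 of about 1000000, were treated as bounds; 21 rows of the circZbtb20 wild type and 25 of the Nr4a1 wild type were there.

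Rows were named through the platform's probe table and matched by gene ID to RefSeq (GRCm38.p6) for symbols, chromosomes and promoter windows. All 19571 named rows matched, and 2634 rows had no symbol. Where rows shared a symbol, as for 55 genes, the one with the greatest mean over the 2 wild types was kept. Ranks, percentiles, list medians, counts by the rule of size and coefficients were computed in Python 3.11.15 with pandas 2.3.3; no test was run, because each genotype has 1 array. The rule of size was run on simulated data with shifts larger than its threshold. This checks the code only and does not show how many of the called genes are noise. Promoter windows are the first listed for a gene.

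The members and gene lists were chosen with earlier results of these data known; 2 lists, gastric mucosa and alpha-defensin genes, were written after values were seen. Named genes are the 5 markers, the 30 brightest, the 12 highest and 12 lowest differences, and from each list up to 4 members by mean and 4 by difference, without predicted genes, clones, small RNAs and antigen receptor segments. Other named members were chosen after their values were seen, to show low members or the defining markers of a cell type. Alternatives were other filters, sizes, scalings and treatments of rows and ceiling values.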

Additional observations from a re-analysis of the deposited data

How the results depend on the processing

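The number of genes at least 2-fold apart, 1575, stayed between 1221 and 1690 when the filter on low values was dropped or asked of both arrays, when the arrays were quantile normalized or centred on their medians, when the rows of a gene were averaged, when all named genes were counted and when genes at the ceiling were left out. At 4-fold it was 195, because the criterion is stricter. Without the members of the lists of other cell types, an alternative chosen after seeing the data, it was 1462. Quantile normalization moved the share of higher among called genes from 55.6% to 49.2% and the median of all differences by -0.03. The Pearson coefficient ranged from 0.964 to 0.974 over its alternatives. Of 7 lists with a median difference of at least 1, all kept their direction; those that moved by 0.1 or more were the MHC class II genes, at 1.61, and the alpha-defensin genes, at 3.20, under quantile normalization, and the enterocyte markers, at 1.42, and the goblet and Paneth markers, at 2.79, over members past the filter only. Of 248 list medians under alternatives 2 changed sign, both of lists with a main median of at most 0.06. The 100 brightest genes by mean were all in the top 500 of both arrays. No paired analysis was possible because each genotype has 1 array. Detection calls were not used here, so values near or under the array medians of 4.48 and 4.51 are poorly measured.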

Other observations

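Genes of the circadian clock, which set daily rhythms in most cells, differed in part between the wild types. Dbp, a clock output factor, was at 7.54 in the circZbtb20 wild type and 9.83 in the Nr4a1 wild type, Per1 at 10.43 and 11.98 and Nr1d1, which encodes the repressor REV-ERB alpha, at 9.17 and 10.61. The core genes Clock, at 10.72 and 10.94, Arntl, at 9.64 and 10.07, and Nr1d2, at 12.01 in both, differed by less than 2-fold. Of 16 measured clock genes 4 were higher and none lower by the rule of size, which met 15.2% of all genes past the filter. Of 13 genes that respond to glucocorticoids, stress hormones that also induce Per1, 4 were higher and 1 lower, and the median difference was 0.65. Fkbp5, a co-chaperone of the glucocorticoid receptor, was at 8.03 and 10.02 and Txnip, an inhibitor of thioredoxin, at 14.70 and 15.94, while Sgk1 was at 5.77 and 6.55.

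Among chemokine receptors, Cxcr6, Ccr7 and Cxcr4 (12.93 and 13.77) were bright, and Ccr2, a receptor for CCL2, was lower in the Nr4a1 wild type, at 9.28 and 7.50. The TNF receptor genes Tnfrsf18, which encodes GITR, at 13.73 and 14.25, and Tnfrsf9, which encodes 4-1BB, at 13.35 and 12.99, were brighter than any of the 14 measured TNF-type ligands, of which Tnfsf11 was the brightest in the mean of both arrays. These are signals of different probes. Stat4, at 16.04 and 15.97, was the brightest of the 14 STAT and IRF genes, none of which met the rule of size. Of the 2634 rows without a gene symbol, 12 were at the ceiling in the circZbtb20 wild type and 16 in the Nr4a1 wild type, and 150 lay above the 95th percentile of all rows in both.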
